A study of Danio rerio with 11 samples.

Results

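The genes described here are pax2a, pax8, lhx1a, hnf1ba and wt1a, the transcription factors by which the early zebrafish kidney, the pronephros, and the intermediate mesoderm that gives rise to it are usually recognised. They were chosen by name, and every probe set to which the array annotation gives one of these symbols was taken. That made 9 of 15502 probe sets: 2 for pax2a, 1 for pax8, 3 for lhx1a and 3 for wt1a. A probe set is named below by its gene and its rank in mean signal over the arrays, so that pax2a-1 is the brightest of pax2a. By the transcript records in the annotation, pax2a-1 stands for NM_131184 and pax2a-2 for AF067535, pax8 for AF072549, lhx1a-1, lhx1a-2 and lhx1a-3 for AW077429, NM_131216 and AW117039, wt1a-2 for NM_131046, and both wt1a-1 and wt1a-3 for X85734. No probe set carried the symbol hnf1ba, so 4 of the 5 genes could be measured, and the probe set of its paralogue hnf1bb was read beside them. Signals came from 11 Affymetrix zebrafish arrays, which compare spadetail (spt) embryos, homozygous for the b104 allele of the T-box gene tbx16, with spt+/+ wild-type embryos.

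At the 4/5-somite stage everything in front of the first somite and most of the yolk were cut away, and the remainder was minced. The RNA came from cells sorted for GFP out of this remainder, called IM below, with 2 wild-type and 3 spt arrays. At the 21-somite stage it came from unsorted, dissected middle tails, with 3 wild-type and 3 spt arrays. The embryos of both genotypes came from crosses with a line in which a pax2a promoter drives GFP. pax2a is therefore the gene behind the sorting gate of the IM samples, and these samples hold cells selected for the reporter. How pure the sorted cells were was not measured here. Each IM sample held the few sorted cells of 8 minced embryos and its RNA was amplified. Each tail sample held the tissue of many embryos and was not amplified. That tissue included somites, presomitic mesoderm, notochord and spinal cord, and also intermediate mesoderm. By the methods, repeated extractions used separate clutches, and each repeat took in both genotypes. Stage, tissue, sorting and amplification all change between IM and tail and cannot be told apart.

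As background, intermediate mesoderm lies between the somites and the lateral plate. In it pax2a and pax8, paired-box factors with overlapping roles, and lhx1a, a LIM homeodomain factor, are among the first genes of the nephric lineage. hnf1ba and hnf1bb encode POU-homeodomain factors that act together in dividing the tubule into its segments. wt1a encodes a zinc-finger factor of the anterior field that makes the podocytes of the glomerulus. The intermediate mesoderm of the zebrafish trunk also makes the primitive red blood cells, which largely fail to form in spt embryos.

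tbx16 itself was measured first. In the tail its brighter probe set read 1544, 949 and 1221 in the wild-type arrays and 420, 415 and 453 in the spt arrays, a log2 difference of -1.49 (SE 0.18, adjusted p = 0.0065 with limma). In IM it read between 76.3 and 106 on all 5 arrays, with overlap between the genotypes. The second tbx16 probe set also lay lower in every spt tail array (412 to 489, against 692 to 944 in wild type), with a log2 difference of -0.75 (SE 0.16) that did not pass (adjusted p = 0.108 with limma). In IM it was dim, with 23.1 and 23.7 in wild type and 35.1, 36.1 and 81.5 in spt, where the spt arrays were the higher ones. A deposited signal under 100 is called dim here. The study used that level as a filter in some of its analyses, on values normalized in another way, and kept all probe sets in others. Of the probe sets, 67.6% to 71.1% in the IM arrays and 80.8% to 84.8% in the tail arrays reached 100. The array medians were 152 to 167 in IM and 261 to 293 in the tail. The tail arrays also resembled each other across genotypes: wild-type array 1 correlated more with spt array 4 (r = 0.980) than with the other wild-type arrays (r = 0.957 and 0.963), wild-type array 2 more with spt array 5 (r = 0.971), and wild-type array 3 more with spt array 6 (r = 0.976). Each wild-type tail array thus had its own spt array, although the highest value of all was between spt arrays 5 and 6 (r = 0.991). The IM arrays did not sort fully by genotype either. There spt array 4 correlated more with wild-type arrays 1 and 2 (r = 0.883 and 0.905) than with spt arrays 3 and 5 (both r = 0.875). Wild-type IM array 2 was also closer to spt array 4 than to wild-type array 1 (r = 0.897). The methods name both genotypes within each replicate, but neither they nor the labels say which arrays belong together, and the labels give no batch. The tests below therefore take the arrays as unpaired.

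Of the gene lists read, the one for blood had the largest median difference between the IM samples. The 15 blood factors and markers measured all had lower values in spt IM, with a median log2 difference of -2.76, and in 13 of them the spt and wild-type arrays did not overlap. The authors had excluded a further wild-type array of this stage, which did not cluster with the others and had far lower red blood cell markers. The wild-type arrays kept are thus not independent of the blood signal, and neither is this lack of overlap. None of the 15 passed at an adjusted p of 0.05 with limma, and 13 had an unadjusted p under 0.05. Over all probe sets, 13.7% lay lower in spt IM without overlap, and 7.2% had an unadjusted p under 0.05 in either direction. The summed signal of the 15 genes was 31250 to 33780 in wild-type IM and 6852 to 9193 in spt IM. None of the defining markers was at 0: hbae3, an embryonic globin, read 123 to 155 in spt IM. The medians of these spt arrays were 152 to 167, so such a reading does not show that globin RNA remained. The part of this blood signal in the values of the kidney factors was not tested. In such samples fewer cells of a type and less RNA per cell cannot be told apart.

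pax2a had the largest log2 difference of the members in IM by its brighter probe set and the opposite sign by the other. pax2a-1 read 274 and 269 on the wild-type IM arrays and 1056, 1283 and 530 on the spt IM arrays. All spt arrays lay above both wild-type arrays, which were almost equal, while the highest spt array was more than double the lowest. The difference was 1.66 on the log2 scale (SE 0.48, 95% interval 0.44 to 2.88). With limma its unadjusted p was 0.0171 and its adjusted p 0.624, so it did not pass. When all 11 arrays shared one fit, and with it one spread per probe set to which the tail arrays contribute, the adjusted p was 0.0441 for the same difference. That fit called 338 probe sets in IM (2.18%), where the fit of the 5 IM arrays called 0.

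In the tail the same pax2a probe set read 123, 95.6 and 138 in wild type and 202, 137 and 203 in spt. The groups overlapped, as spt array 5 fell just under the highest wild-type array. The tail difference was 0.52 on the log2 scale (SE 0.21, 95% interval 0.05 to 0.996, unadjusted p = 0.0333, adjusted p = 0.581 with limma). With the tail arrays blocked in the pairs that their correlations gave, an alternative chosen after the data were seen, its SE was 0.11 and its adjusted p 0.0307 with limma, and each spt array was above the wild-type array of its pair. That fit called 3.71% of all probe sets, and since the pairs come from the values themselves the call rests on a pairing that the labels do not give. The interaction, the genotype difference in the tail minus that in IM, was -1.13 on the log2 scale (SE 0.48). It had an unadjusted p of 0.0392 and an adjusted p of 0.489 with limma.

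pax2a-2 gave the opposite sign. Its array identifier has a suffix that marks a design that matches several transcripts of one gene. It read 158 and 169 in wild-type IM and 98.7, 153 and 91.3 in spt IM, so here every spt array was below both wild-type arrays. The log2 difference was -0.45 (SE 0.21, 95% interval -0.99 to 0.10, adjusted p = 0.688 with limma). In the tail it read 121, 155 and 150 in wild type and 116, 117 and 146 in spt, with overlapping groups and a log2 difference of -0.16 (SE 0.14). After each stage was centred on its mean, the values of the 2 pax2a probe sets had a correlation of -0.44 over the 11 arrays. The 95% intervals of their IM differences do not overlap, so the sign of the pax2a estimate in IM depends on the probe set that is read. The interval of pax2a-2 holds values of either sign, however. Only 1 of its 3 spt IM arrays reached 100, and the medians of the IM arrays were 152 to 167. A lower pax2a level in spt IM is thus not shown by pax2a-2.

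**Figure D1:**
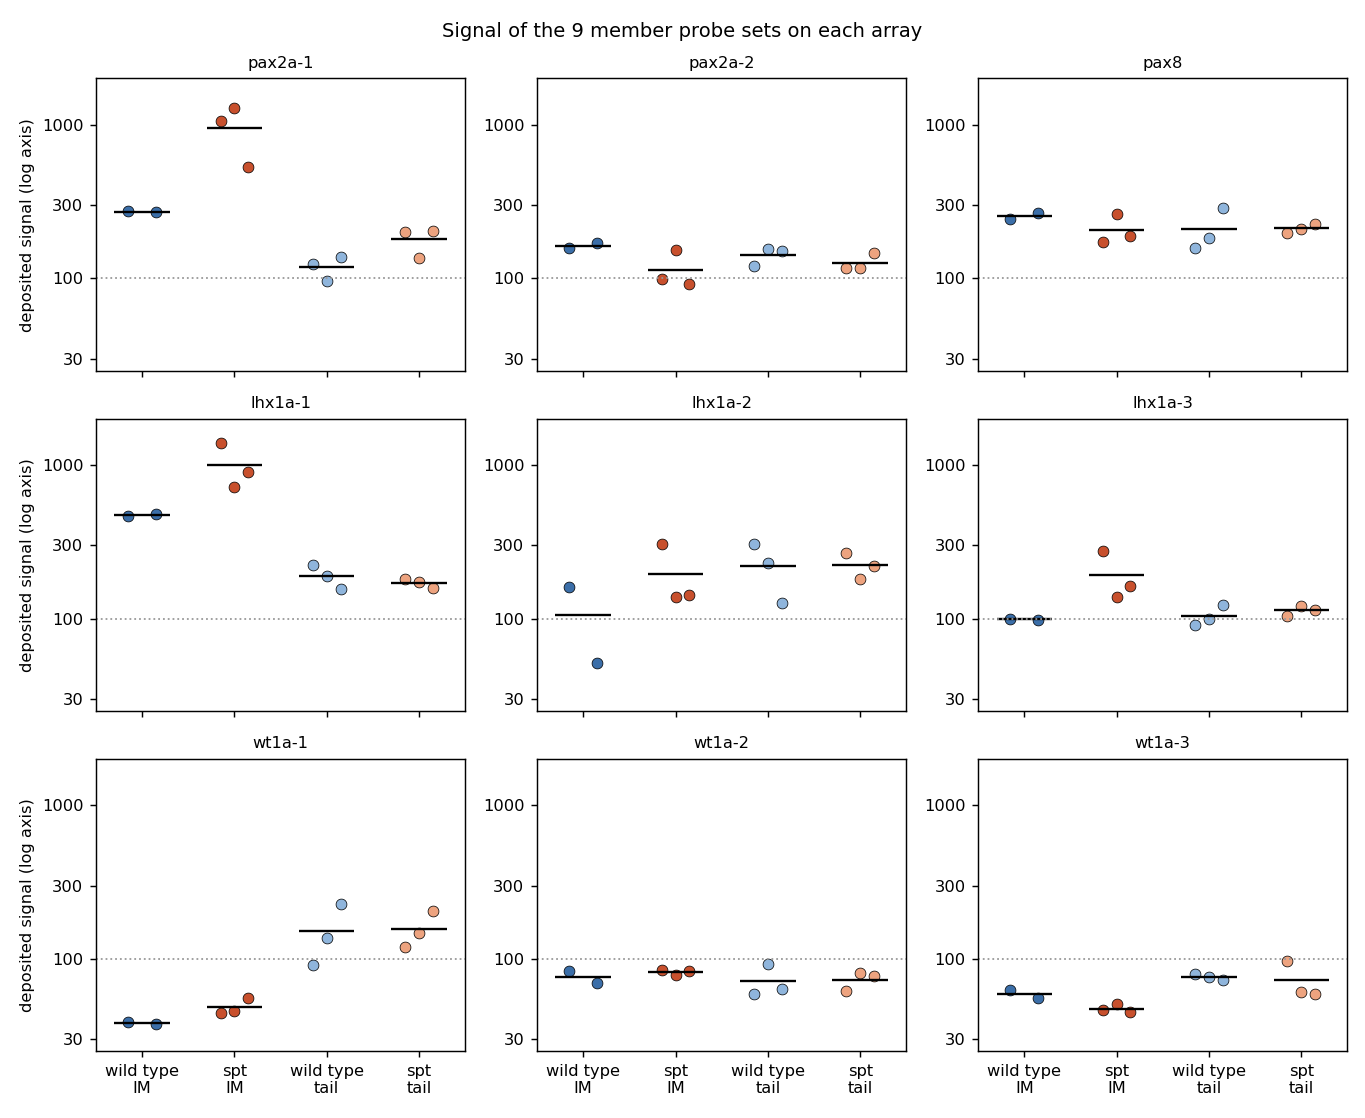
Deposited signal (log axis) of the 9 probe sets of pax2a, pax8, lhx1a and wt1a on every array, in the order wild-type IM (2 arrays), spt IM (3), wild-type tail (3) and spt tail (3). Points are arrays, horizontal lines are group means and the dotted line is a signal of 100; the spt IM arrays of pax2a-1 (530 to 1283) and of lhx1a-1 (717 to 1398) lie above all other arrays of their panels, and the points of wt1a-2 and wt1a-3 all stay under 100.

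pax8 was measured by a single probe set and did not separate the genotypes at either stage. It read 244 and 265 in wild-type IM and 172, 262 and 188 in spt IM. Arrays 3 and 5 of spt were below both wild-type arrays and array 4 was level with them. The log2 difference was -0.25 (SE 0.25, 95% interval -0.88 to 0.38, adjusted p = 0.765 with limma). In the tail it read 157, 183 and 289 in wild type and 198, 211 and 227 in spt, where the spt arrays sat inside the wild-type range. The tail difference was 0.03 (SE 0.19, 95% interval -0.40 to 0.46), and its sign turned when wild-type array 1 or wild-type array 2 was left out. These intervals leave room for a difference of either sign, so equal pax8 levels are not shown.

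All 3 lhx1a probe sets had higher means in spt IM, although none passed. The brightest, lhx1a-1, read 466 and 478 in wild-type IM and 1398, 717 and 900 in spt IM. Every spt array was above both wild-type arrays, by a log2 difference of 0.92 (SE 0.40, 95% interval -0.10 to 1.94, unadjusted p = 0.0683, adjusted p = 0.688 with limma). lhx1a-3 read 99.97 and 97.86 in wild-type IM, both just under 100, and 274, 138 and 162 in spt IM, again without overlap. Its log2 difference was 0.83 (SE 0.32, 95% interval 0.03 to 1.64, unadjusted p = 0.0452, adjusted p = 0.687 with limma). The suffix of its array identifier marks a design shared with transcripts of other genes, so that its signal may not come from lhx1a alone. lhx1a-2 read 160 and 51.1 in wild-type IM and 306, 138 and 142 in spt IM, where the first wild-type array lay above spt arrays 4 and 5. Its log2 difference was 0.89 (SE 0.54, 95% interval -0.49 to 2.26), and it was 0.20 without wild-type array 2, the array that read 51.1, and 1.57 without wild-type array 1. All 3 probe sets put the spt arrays in the same order, with array 3 highest and array 4 lowest. They come from the same 5 samples and are not separate evidence.

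In the tail none of the lhx1a probe sets separated the genotypes. lhx1a-1 read 222, 190 and 155 in wild type and 181, 173 and 157 in spt, a log2 difference of -0.14 (SE 0.19). lhx1a-3 read 91.4, 99.1 and 123 in wild type and 104, 121 and 114 in spt, a log2 difference of 0.10 (SE 0.13). lhx1a-2 read 305, 230 and 127 in wild type and 269, 180 and 220 in spt, a log2 difference of 0.07 (SE 0.31). The interactions of lhx1a-1, lhx1a-3 and lhx1a-2 were -1.06, -0.73 and -0.81 on the log2 scale. Those of lhx1a-1 and lhx1a-3 had unadjusted p-values of 0.0247 and 0.0437 with limma, and adjusted p-values of 0.421 and 0.507.

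wt1a was dim in IM with every probe set. wt1a-1 read 38.9 and 37.5 in wild-type IM and 44.2, 46.1 and 55.8 in spt IM. The groups did not overlap, but all 5 values were far under 100, and the log2 difference was 0.25 (SE 0.13, adjusted p = 0.688 with limma). wt1a-3, a probe set of the same sequence cluster whose identifier marks the other orientation, had the opposite sign: 63.0 and 55.9 in wild-type IM against 46.5, 50.5 and 45.3 in spt IM, a log2 difference of -0.24 (SE 0.11). wt1a-2 read 69.9 to 83.0 in wild-type IM and 78.9 to 84.7 in spt IM, with overlap and a log2 difference of 0.13 (SE 0.14).

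Only wt1a-1 reached 100 for wt1a, and only in the tail. Since wt1a-1 and wt1a-3 stand for the same record with opposite orientation marks, its signal may not come from wt1a mRNA, which was not checked. wt1a-1 read 91.0, 138 and 227 in wild type and 120, 146 and 205 in spt. The 3 values of each genotype spread widely and covered much the same range, with a log2 difference of 0.08 (SE 0.26, 95% interval -0.50 to 0.67). wt1a-2 read 59.2 to 92.7 in wild-type tail and 61.4 to 81.2 in spt tail. wt1a-3 read 73.2 to 79.7 and 59.0 to 97.1. Their tail differences of 0.04 (SE 0.16) and -0.08 (SE 0.20) changed sign when single tail arrays were left out.

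No probe set annotated as hnf1ba was there to read. Its paralogue hnf1bb, which was taken up for that reason and is not a member, was measured by a single probe set. The annotation ties that probe set to the record AF250352, which older annotation may have assigned differently. Its name was not checked against a sequence here. In wild-type IM it read 5117 and 5471, and in spt IM 7232, 8633 and 4824, with overlap and a log2 difference of 0.26 (SE 0.29, 95% interval -0.47 to 0.98, adjusted p = 0.784 with limma). In the tail it read 37.8, 55.8 and 40.1 in wild type and 109, 90.2 and 78.7 in spt. Every spt tail array was above every wild-type one, although 5 of the 6 were under 100. All tail arrays lay far below all IM arrays, and because the tail signals were dim no size is given for that difference. Between spt and wild-type tail, the log2 difference of hnf1bb was 0.85 (SE 0.17, 95% interval 0.48 to 1.22, unadjusted p = 0.000624 with limma). The adjusted p of this genotype difference, 0.071 with limma, missed the threshold. Of the other paralogues, lhx1b read 108 and 126 in wild-type IM against 63.1 to 114 in spt IM, with overlap. Its log2 difference was -0.41 (SE 0.22, adjusted p = 0.688 with limma), which is the opposite sign to lhx1a. Only 1 of its 3 spt IM arrays reached 100. In the tail lhx1b read 137 to 199 in wild type and 158 to 184 in spt, within the same range. The brighter pax2b probe set overlapped between genotypes at both stages, with 19.1 and 207 in wild-type IM against 33.2 to 138 in spt IM.

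Over the 9 member probe sets, 0 passed at an adjusted p of 0.05 with limma in IM, where 0.0% of all 15502 probe sets did. At an unadjusted p under 0.05 there were 2 higher and 0 lower, with 7.2% of all probe sets under that value in either direction. The median log2 difference of the members in IM was 0.25, against -0.01 over all probe sets. That median is the value of wt1a-1, which was dim on every IM array. The spt arrays lay above the wild-type arrays, with no overlap, for 4 member probe sets: pax2a-1, lhx1a-1, lhx1a-3 and wt1a-1. They lay below for 2, pax2a-2 and wt1a-3. Both wt1a probe sets were dim in IM, and probe sets of the same gene are not separate evidence. Among all probe sets, 12.5% lay above and 13.7% below in this way, and a log2 difference of at least 1 in size was found for 9.21% of all probe sets in IM and 0.787% in the tail. In the tail 0 members passed, where 0.69% of all probe sets did, and 1 had an unadjusted p under 0.05, where 7.44% of all probe sets did. No member had groups without overlap in the tail, where 6.73% of all probe sets lay above and 5.28% below. The tail median was 0.04 for the members and 0.00 over all probe sets. In the interaction 0 members passed, where 0.484% of all probe sets did, and 3 were under an unadjusted p of 0.05, where 9.28% of all were.

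**Figure D2:**
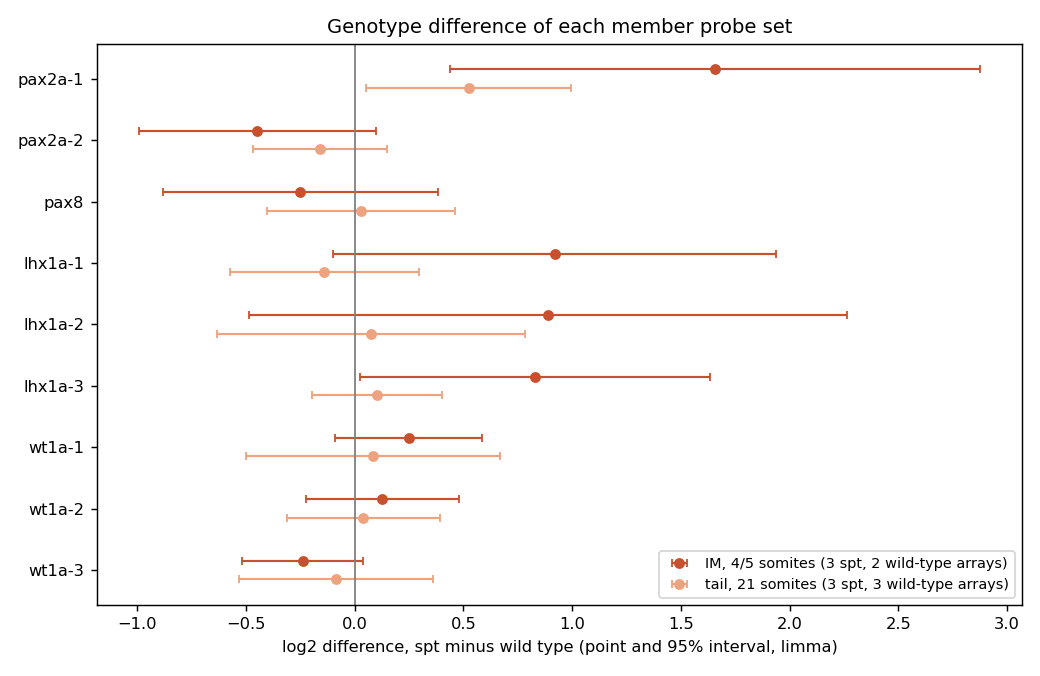
Log2 difference between spt and wild type for each of the 9 probe sets, in IM (2 wild-type and 3 spt arrays) and in the tail (3 and 3), with 95% intervals from limma. Above zero means higher in spt; only pax2a-1 (0.44 to 2.88) and lhx1a-3 (0.03 to 1.64) have IM intervals clear of zero, and only the former has one in the tail (0.05 to 0.996).

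The order of the 4 groups was read next. For the bright pax2a probe set the mean signals were 119 ± 21.6 (SD, n = 3) in wild-type tail, 181 ± 38.2 (n = 3) in spt tail, 271 ± 3.93 (n = 2) in wild-type IM and 956 ± 386 (n = 3) in spt IM. The tail groups overlapped and the other neighbours did not. For lhx1a-1 the means were 170 ± 11.9 in spt tail, 189 ± 33.4 in wild-type tail, 472 ± 8.95 in wild-type IM and 1005 ± 353 in spt IM, with the same number of arrays and overlap only within the tail. lhx1a-2 had another order, with means of 105.5 in wild-type IM, 195 in spt IM, 221 in wild-type tail and 223 in spt tail. All its neighbouring groups overlapped. pax8 had means of 208 to 212 in spt IM and both tail groups, which overlapped, and of 255 ± 15.1 in wild-type IM. For wt1a-1 the order was turned round, with 38.2 ± 1.01 in wild-type IM, 48.7 ± 6.25 in spt IM, 152 ± 69.3 in wild-type tail and 157 ± 43.6 in spt tail.

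With all arrays normalized together, 1 member probe set was higher and 5 were lower in wild-type tail than in wild-type IM, and 1 was higher and 6 were lower in spt tail than in spt IM. These calls stand against 46.1% of all probe sets called in wild type and 48.5% in spt, so that calls of this kind were common on these arrays. The calls depended on the scaling: the median over all probe sets was -0.12 in wild type and -0.13 in spt here, but 0.42 and 0.41 when each stage was normalized by itself. Results that held their sign and their call under all of these scalings were as follows. The bright pax2a probe set was lower in the tail, by a log2 difference of -1.75 in wild type (SE 0.31, adjusted p = 0.00116 with limma) and -2.62 in spt (SE 0.28, adjusted p = 3.92e-05). lhx1a-1 was lower in the tail, by -1.90 in wild type (SE 0.27, adjusted p = 0.000294) and -2.75 in spt (SE 0.24, adjusted p = 1.23e-05 with limma). lhx1a-3 was lower in spt tail by -1.30 (SE 0.22, adjusted p = 0.000719 with limma), but in wild type the difference of -0.49 did not pass. lhx1a-2 passed in neither genotype, with 0.45 in wild type (SE 0.51) and -0.47 in spt (SE 0.455). The lhx1a probe sets thus did not all give a lower tail level. wt1a-1 was called higher in the tail in both genotypes (adjusted p = 0.00419 in wild type and 0.00674 in spt with limma). All its IM signals were far under 100, so only the direction is given and not a size. Whether this probe set reads wt1a mRNA was not checked.

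The remaining tail calls did not outlast the other scalings. pax8 had a log2 difference of -1.0 in wild type and -0.73 in spt with all arrays normalized together, and of -0.27 and 0.01 with each stage normalized by itself. The second pax2a probe set went from -0.85 and -0.49 to -0.15 and 0.14 in the same way. wt1a-2 went from -0.55 and -0.66 to -0.07 and -0.16.

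**Figure D3:**
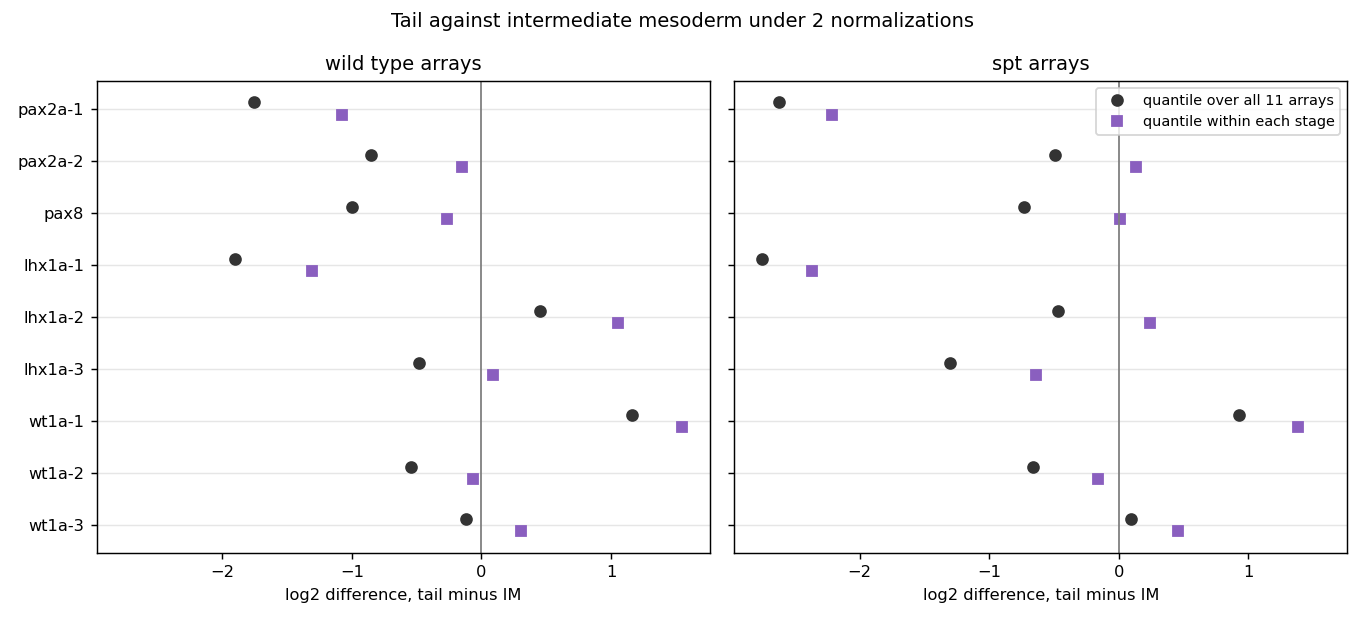
Log2 difference between tail and IM for each of the 9 probe sets in wild-type (left) and spt (right) arrays, with all 11 arrays quantile normalized together (circles) and with each stage normalized by itself (squares). Below zero means lower in the tail; pax2a-1, lhx1a-1 and wt1a-1 keep their side under both (with the IM signals of wt1a-1 all under 100), whereas pax8 in spt moves from -0.73 to 0.01.

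Other transcription factors of intermediate mesoderm and pronephros were read as a list of 40 genes, of which 30 had a probe set. In IM 17 had higher and 13 lower values in spt, with a median log2 difference of 0.25 and 0 genes passing at an adjusted p of 0.05 with limma, or at an unadjusted p under 0.05. The smallest p-values in IM belonged to esrrga, an orphan nuclear receptor, to tfap2a, an AP-2 factor, and to etv4 and etv5a, ETS factors downstream of FGF signalling. tfap2a read 3159 and 4268 in wild-type IM and 9167, 5977 and 5030 in spt IM, a log2 difference of 0.74 (SE 0.34). etv5a read 407 and 1057 in wild-type IM and 1128, 1864 and 2251 in spt IM, a log2 difference of 1.21 (SE 0.57). etv4 read 278 and 331 against 575, 394 and 948, a log2 difference of 0.89 (SE 0.44), and esrrga read 224 and 214 against 116, 188 and 126, a log2 difference of -0.53 (SE 0.23). In each of these 4 genes, picked for their small p-values, the genotypes did not overlap, and in each the adjusted p was 0.688 with limma. Over the 30 genes, 3 lay above and 2 below without overlap, where 12.5% and 13.7% of all probe sets did.

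In the tail 16 of these 30 genes had higher and 14 lower values in spt, with a median of 0.04. None of the 30 passed at an adjusted p of 0.05 with limma. There were 6 higher and 3 lower at an unadjusted p under 0.05, where 7.44% of all probe sets were in either direction. hey1, a Hairy-related repressor of the Notch pathway, read 1610, 1984 and 1272 in wild type and 926, 909 and 886 in spt, a log2 difference of -0.83 (SE 0.16, adjusted p = 0.0747 with limma). The forkhead genes foxc1a and foxc1b, also known from somites, had log2 differences of -0.90 (SE 0.22, adjusted p = 0.176) and -0.84 (SE 0.20, adjusted p = 0.159 with limma). Each of the 3 spt arrays was below each wild-type array for both forkhead genes. Over the 30 genes, 8 lay above and 3 below without overlap in the tail, where 6.73% and 5.28% of all probe sets did. gata3, a GATA factor of the pronephric duct, read 127, 167 and 122 in wild type and 196, 217 and 223 in spt, a log2 difference of 0.55 (SE 0.15, adjusted p = 0.259 with limma).

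Genes of the differentiated tubule were read beside the factors. Of 23 measured genes for tubule, transport and podocyte proteins, 5 rose in spt tail and 0 fell at an adjusted p of 0.05 with limma: atp1a1a.3, atp1b1a, cdh17, slc12a3 and dab2. Over all probe sets 0.69% passed in the tail, in either direction. atp1a1a.3, a subunit of the sodium pump, read 194, 247 and 288 in wild type and 1767, 1546 and 1569 in spt, a log2 difference of 2.66 (SE 0.16, adjusted p = 0.000141). cdh17, a cadherin of the pronephric tubule and duct, read 216, 345 and 363 against 1204, 1097 and 1307, a log2 difference of 1.90 (SE 0.19, adjusted p = 0.00298 with limma). The list's median was 0.26 in the tail, against 0.00 over all probe sets. In IM 0 of the 23 passed, 9 had higher and 14 lower values, and the median was -0.07. slc12a3 and atp1b1a had 2 probe sets each, and the one read in IM was not the one read in the tail. For these genes the stages are thus not compared on the same probe set.

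**Figure D4:**
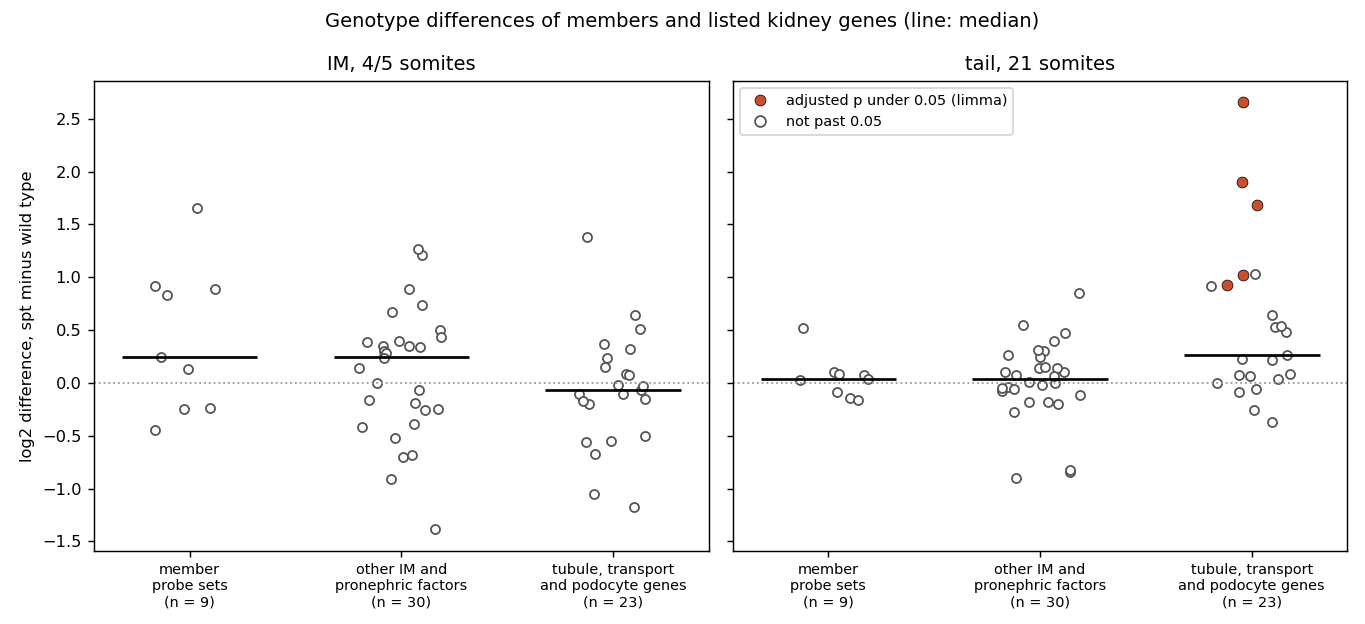
Log2 difference between spt and wild type for the 9 member probe sets, 30 other factors of intermediate mesoderm and pronephros and 23 tubule, transport and podocyte genes (brightest probe set of each gene), in IM (left) and in the tail (right). Points are probe sets, lines are medians and filled points passed at an adjusted p of 0.05; the 5 filled points are tubule and transport genes in the tail, and no member or other factor passed at either stage.

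Markers of other cell types were set beside these values. In IM, 17 genes of the other places that express pax2a (midbrain-hindbrain boundary, ear, eye stalk and spinal interneurons) had 5 higher and 12 lower values in spt and a summed signal of 2878 to 3115 in wild type and 3286 to 4876 in spt. By the methods, tissue in front of the first somite was cut away before the sort. The study also wrote that imperfect sorting may lie behind candidate genes that in situ hybridization showed only outside intermediate mesoderm. The part of these other places in the IM values was not tested. Among the 17 genes the smallest p was that of gbx2, a homeodomain factor of the hindbrain side of the midbrain-hindbrain boundary and of posterior tissue. It read 238 and 348 in wild-type IM and 1000, 1202 and 1090 in spt IM, a log2 difference of 1.82 (SE 0.35, adjusted p = 0.464 with limma). The genes next to it by p, en1a, evx1 and nkx2.4b, were lower in spt IM without overlap. Over the 17 genes, 3 lay above and 6 below without overlap, where 12.5% and 13.7% of all probe sets did. Like the bright pax2a probe set, gbx2 had higher values in spt IM, and its part in the pax2a value was not tested. The 15 neural genes summed to 7609 to 9416 in wild-type IM and 5803 to 10250 in spt IM, and the 8 epidermal genes to 1585 to 3927 and 1884 to 3975. Notochord and floor plate genes (7 measured) summed to 1150 to 1209 and 1012 to 1201, endothelial genes (4 measured) to 412 to 1211 and 335 to 602, and endodermal genes (7 measured) to 7631 to 7989 and 6065 to 8162. The sums of the 13 paraxial mesoderm and muscle genes did not overlap in IM, at 2043 to 2329 in wild type and 1488 to 1859 in spt. Of these genes, however, 7 had higher and 6 lower values in spt IM, with a median log2 difference of 0.009. Without overlap were 1 higher gene, myod1 (84.2 and 58.4 against 88.6, 153.8 and 92.25), and 2 lower ones. None of the 13 passed. With 7.2% of all probe sets under an unadjusted p of 0.05 with limma in either direction, 2 of the 13 were, both with lower values in spt. These were mespba, a bHLH factor of somite formation (298 and 260 against 118, 123 and 118), and msgn1, a bHLH factor of presomitic mesoderm (252 and 562 against 122, 109 and 103). The part of these tissues in the IM values of the members was not tested. In the tail, where 13 paraxial mesoderm and muscle genes all had lower values in spt and 7 of them fell, their sum was 14590 to 19850 in wild type and 8110 to 9135 in spt. tbx16, the mutated gene itself, is on this list, among the 7 that fell and in the sums of both stages. The 15 neural genes all had higher values in spt tail, summing to 11570 to 13470 in wild type and 16570 to 17360 in spt, with 9 at an unadjusted p under 0.05 and 0 passing after adjustment with limma. The 15 blood genes all had lower values in spt tail and 8 of them fell, with sums of 14050 to 19600 in wild type and 4430 to 5699 in spt. The 4 endothelial genes all had higher values in spt tail, with sums of 1093 to 1224 and 1386 to 1602, and so did the 8 epidermal genes, with sums of 21240 to 28200 and 25360 to 35270, and 0 of either list passed with limma (2 and 3 at an unadjusted p under 0.05). Over all probe sets in the tail, 0.69% passed and 7.44% had an unadjusted p under 0.05 with limma, in either direction. The part of these tissues in the tail values of the members was not tested.

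The genes whose pattern was most like that of each member were sought by Pearson's r over the 11 arrays, with each stage centred on its own mean so that the difference between stages did not count. For the bright pax2a probe set, out of 9532 probe sets with another symbol and a mean signal of at least 100, these were nelfcd (r = 0.941), krit1 (0.937) and sox11a (0.936). For pax8 they were znhit1 (0.947), plcg1 (0.941) and man2b2 (0.938), and for lhx1a-1 they were ccdc102a (0.959), vps41 (0.955) and naa25 (0.955). For wt1a-1 they were ppp1r15a (0.971), lama4 (0.965) and faf2 (0.962). None of these genes is among the listed kidney factors. With 11 arrays that share 4 groups and so many candidates, such values describe these arrays only. Among the members, lhx1a-1 had r = 0.77 and 0.83 with its other 2 probe sets, 0.60 with the bright pax2a probe set and -0.77 with pax8, while the bright pax2a probe set had r = -0.15 with pax8.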

How the data were processed

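The samples were 11 one-colour Affymetrix zebrafish arrays, grouped by the genotype and stage in their labels. The authors acquired images with MAS5 5.0 and deposited linear intensity values, 1 per probe set and array, between 0.08 and 20089.3. No source used here says how the deposited values were scaled between arrays. One wild-type array that the authors excluded was not used here. Of 15617 probe sets, 115 controls were left out. The annotation gave 10795 probe sets 1 symbol, 135 several and 4572 none, and names came only from probe sets with 1 symbol. Signals printed per array are as deposited.

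For tests, signals were quantile normalized (within a stage for genotype differences and the interaction, over all 11 arrays for tail against IM), offset by 16 and put on the log2 scale, where limma 3.58.1 under R 4.3.3 fitted 1 mean per group and a variance trend. Benjamini-Hochberg adjustment took in 15502 probe sets, with a threshold of 0.05, and log2 differences and 95% intervals are from this fit. The added 16 understates differences of dim probe sets. Genotype differences were fitted on the arrays of their stage. The interaction and tail against IM were fitted on all 11 arrays, with a single spread per probe set for IM and tail together. The limma step was tested on simulated data. Summaries were made in Python 3.11.15 (pandas 2.3.3, numpy 2.4.6, scipy 1.17.1) and plots with matplotlib 3.10.9. Precision was limited by the number of arrays. An exact permutation test of 2 against 3 arrays could not have passed.

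The members and gene lists were chosen with earlier results of these data known, so list counts and medians are descriptions. Named genes were all member probe sets, up to 4 genes per list and stage with the smallest unadjusted p among genes that reached a mean of 100 in a genotype, and the 3 probe sets most like each member's brightest. dab2, hnf1bb, lhx1b and pax2b were added after values were seen. Each listed gene was counted by its brightest probe set at the stage, by the mean over the arrays of both genotypes. The choice can therefore differ between stages and can favour a probe set that is high in 1 genotype. The alternatives were deposited values, one median, other quantile groupings, offsets of 1 and 64, a filter at a signal of 100, no variance trend, one fit of all arrays, a t-test at the thresholds of the study's methods, a replicate block, leaving out each array and, added after the data were seen, tail arrays blocked in pairs by correlation.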

Additional observations from a re-analysis of the deposited data

How the results depend on the processing

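The count of member probe sets that passed stayed at 0 for the interaction under every alternative run. For the genotype difference in the tail it was 1 (pax2a-1, adjusted p = 0.0307 with limma) with the tail arrays blocked in pairs by correlation, chosen after the data were seen, and 0 otherwise. In IM it was 1 (pax2a-1, log2 difference 1.66, adjusted p = 0.0441 with limma) with all 11 arrays in one fit and 0 otherwise. Leaving out single arrays put that pax2a difference between 1.39 and 1.99. For tail against IM, the count of 6 in wild type was 3 with deposited values and 3 with quantiles within each stage, and ranged from 5 to 7 without single arrays. The count of 7 in spt was 5 with deposited values, 5 with quantiles within each stage and 5 with the filter at a signal of 100, and ranged from 6 to 7 without single arrays. That filter took out all wt1a probe sets before testing. wt1a-1 and wt1a-2, called in both genotypes without it, were then not measured in either. With the shared number in the labels as a replicate block the counts were 5 in wild type and 4 in spt. The correlations of same-numbered arrays across stages were only 0.0033, 0.0069, 0.0152 and 0.0439, so the numbers were not taken to pair the samples.

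Some tail-minus-IM log2 differences changed sign, the first value being with deposited values and the second with quantiles within each stage. In wild type these were lhx1a-3 (0.058 and 0.09) and wt1a-3 (0.30 and 0.31). In spt they were pax2a-2 (0.15 and 0.14), pax8 (0.048 and 0.012) and lhx1a-2 (0.25 and 0.24), and wt1a-3 was -0.21 with arrays scaled to one median. The cause was not tested. Without single arrays, genotype differences in the tail ranged from -0.078 to 0.24 for pax8, from -0.31 to 0.036 for lhx1a-1, from -0.28 to 0.38 for lhx1a-2, from -0.14 to 0.35 for wt1a-1, from -0.052 to 0.18 for wt1a-2 and from -0.31 to 0.035 for wt1a-3. The interactions of the 3 wt1a probe sets, in the same order, ranged from -0.38 to 0.10, from -0.20 to 0.048 and from -0.067 to 0.27. The tail-minus-IM difference of lhx1a-2 in wild type ranged from -0.36 to 1.28, the former without wild-type IM array 2, and that of wt1a-3 in spt from -0.10 to 0.20. The spt call of pax2a-2 was lost without spt IM array 4 (adjusted p = 0.0825) or any single spt tail array, and the wild-type call of wt1a-2 without wild-type IM array 1 (0.147), wild-type tail array 1 (0.054) or wild-type tail array 3 (0.0564 with limma).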
